A study of Mus musculus with 8 samples.

Results

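Pigment genes of melanocytes were examined across 8 mouse skin samples. The 10 genes were taken as those whose RefSeq accession on the array belongs to Tyr, Tyrp1, Dct, Pmel, Mlana, Slc45a2, Oca2, Mc1r, Kit or Mitf, and all 10 had a probe that could be tested, of 14774 genes with a symbol and a tested probe. Each skin RNA was hybridised to its own single-colour Agilent mouse array. All samples were skin of strain C57BL/6N, a black mouse strain. The groups were hair loss skin of Cchcr1 mutants (n = 2), normal skin of Cchcr1 mutants (n = 4) and normal skin of the wild type (n = 2). The study made its mutants by CRISPR/Cas9 editing and looked at patchy hair loss of the alopecia areata kind; Cchcr1 encodes a coiled-coil protein. Age, body site and the exact edit are not given in the sources used here. The sample titles carry a number (Mutant097, Mutant113 or Wild001) and a letter whose meaning is likewise not given. Each mutant number had 1 hair loss sample (letter S) and 2 normal skin samples (letters B and A), and both wild type samples (B and A) were Wild001, so the effects of genotype and of title number on a comparison with wild type cannot be told apart. Nothing says that samples of a group came from separate animals, and p-values therefore measure the spread between these samples only.

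Melanin is made inside melanosomes, organelles of the melanocyte. In mouse skin most melanocytes sit in the hair follicle, where pigment is made while the follicle grows a hair and passed to the cells of the shaft. Tyrosinase (Tyr) starts the pathway, Tyrp1 and Dct act on its later intermediates, Pmel forms the fibrils on which melanin is laid down, and the transcription factor Mitf binds the promoters of many of these genes.

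Promoters are shown because Mitf is known to bind a short motif in front of several of the members. RefSeq promoter windows (build GRCm38.p6, 250 bases before to 50 after the gene's start) were given for 7 of the 10 genes, all but Pmel, Mlana and Slc45a2. The motif CATGTG, searched on both strands, stood in the windows of 5 of these 7 genes (Tyr, Tyrp1, Dct, Oca2 and Mc1r). Counted by window, since Kit has 2 and Mitf 3, it stood in 5 of 10 and in 14.2% of all 32851 windows in the table. Its longer form TCATGTG, every copy of which is also a CATGTG, stood in 4 of the 10 windows (Tyr, Tyrp1, Dct and Mc1r) and in 3.77% of all windows. CACGTG stood in 0 of the 10 and in 7.15% of all windows. A match describes these letters and does not show binding. The motif was chosen because Mitf is known to bind it in pigment genes, so its share among the members is no independent result. Its part in the levels reported below was not tested. In the windows of Tyr (chr7:87493463-87493762, minus strand), Tyrp1 (chr4:80833963-80834262, plus strand) and Dct (chr14:118052197-118052496, minus strand), printed 5′ to 3′ along the gene with CATGTG or its reverse complement in capitals, the copies begin 21 bases before the start of Tyr, 46 before that of Tyrp1, and 232 (reverse) and 150 before that of Dct.
Tyr: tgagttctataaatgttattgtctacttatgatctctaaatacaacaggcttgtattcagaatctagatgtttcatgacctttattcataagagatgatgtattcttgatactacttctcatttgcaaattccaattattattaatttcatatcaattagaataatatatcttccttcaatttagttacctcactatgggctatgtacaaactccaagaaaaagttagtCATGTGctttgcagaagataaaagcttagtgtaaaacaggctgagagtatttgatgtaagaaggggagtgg
Tyrp1: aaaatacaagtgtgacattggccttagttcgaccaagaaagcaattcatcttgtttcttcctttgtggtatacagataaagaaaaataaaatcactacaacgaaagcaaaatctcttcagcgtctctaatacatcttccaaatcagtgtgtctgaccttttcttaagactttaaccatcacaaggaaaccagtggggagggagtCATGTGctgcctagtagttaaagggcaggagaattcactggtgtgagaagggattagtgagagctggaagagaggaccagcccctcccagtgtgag
Dct: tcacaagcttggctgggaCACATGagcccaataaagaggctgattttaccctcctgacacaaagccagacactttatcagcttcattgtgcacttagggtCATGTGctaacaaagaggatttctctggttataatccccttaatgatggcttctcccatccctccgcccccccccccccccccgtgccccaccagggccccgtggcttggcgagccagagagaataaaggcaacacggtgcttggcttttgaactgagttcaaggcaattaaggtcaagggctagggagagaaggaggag
The copies of Oca2 (chr7:56239556-56239595, plus strand, 186 bases before the start, reverse) and Mc1r (chr8:123407014-123407053, plus strand, 51 bases before the start) are shown with their flanks. A further reverse copy in Mc1r begins 62 bases before its start.
Oca2: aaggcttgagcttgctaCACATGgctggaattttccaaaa
Mc1r: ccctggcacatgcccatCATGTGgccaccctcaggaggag

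Levels are log2 of the processed spot intensity minus the 75th percentile of the array, so 0 stands for that percentile and a difference of 1 for a change by a factor of 2. The 75th percentile was an intensity of 83.1 to 211, 25421 to 30205 probes per array were well above background by the scanner software's mark, and 30417 probes were tested. Cchcr1 itself averaged 0.24 ± 0.35 (SD, n = 2) in hair loss skin, 0.12 ± 0.16 (n = 4) in normal mutant skin and -0.05 ± 0.03 (n = 2) in the wild type, and its groups did not differ past the threshold (limma, adjusted p = 0.688 for normal mutant skin against wild type). Where this probe lies relative to the edit is not given in the sources used here, so it does not check the genotype. Of the sex-linked transcripts, Xist was detected in Mutant113 alone, in all 3 of its samples, and the Y-linked Ddx3y and Eif2s3y in every sample of Mutant097 and Wild001 and in no other. By these transcripts Mutant113 reads as female and Mutant097 and Wild001 as male. The mutant groups thus mix the sexes, while the wild type samples read as male only. All arrays shared 1 slide, with both hair loss samples and normal skin of Mutant097 in row 1 and the other 4 samples in row 2. A model with the row as a block therefore sets hair loss skin against normal skin of Mutant097 alone. It likewise sets normal skin of Mutant113 alone against the wild type, so row and title number cannot be told apart.

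Most pigment genes averaged higher in mutant skin, with or without hair loss, than in the wild type, and Mlana was the exception. Normal mutant skin exceeded wild type in 9 of 10 genes, with a median log2 difference of 2.23 against -0.04 over all probes tested. The hair loss samples exceeded wild type in 9 of 10, with a median of 3.0 against -0.06. Between hair loss and normal mutant skin the difference was smaller, higher in 10 of 10 genes with a median of 0.75 against -0.01. In bulk skin, fewer melanocytes and less RNA in each melanocyte cannot be told apart.

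Kit, called between hair loss and wild type, was the single member that passed limma's adjusted p threshold of 0.05 in any of the 3 comparisons. The members called were 0 of 10 for hair loss against normal mutant skin (0% of all probes), 0 of 10 for normal mutant skin against wild type (0.694% of all probes) and 1 of 10 for hair loss against wild type (1.42%). At an unadjusted p under 0.05, limma gave 1, 7 and 7 of the 10, beside 5.20%, 17.2% and 24.8% of all probes. Groups that did not overlap, with the first higher, were seen for 1 member between hair loss and normal mutant skin (Kit; 5.73% of all probes). They were seen for 6 members between normal mutant skin and wild type (Tyrp1, Dct, Pmel, Oca2, Mc1r and Kit; 13.6%), and for 9 members, all but Mlana, between hair loss and wild type (24.8%). The last 2 comparisons share the wild type samples and are not independent of each other.

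How far the mutant samples stood above the wild type depended on the dim genes. Slc45a2, Oca2 and Mc1r were not well above background in the wild type, and with these 3 at their floor-based values the median was 0.89 for normal mutant skin and 1.76 for hair loss skin against wild type. With a normexp background correction, chosen after the data were seen, the medians were 0.47 and 0.67, and without wild type replicate 2 the median of normal mutant skin against wild type was 1.41. The median of hair loss against normal mutant skin was 0.26 without hair loss replicate 1, 1.27 without hair loss replicate 2, 1.21 and 0.37 without normal skin replicates 1 and 4, 0.28 with the slide row as a block and 0.40 with normexp. The row block value sets hair loss skin against normal skin of Mutant097 alone.

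**Figure D1:**
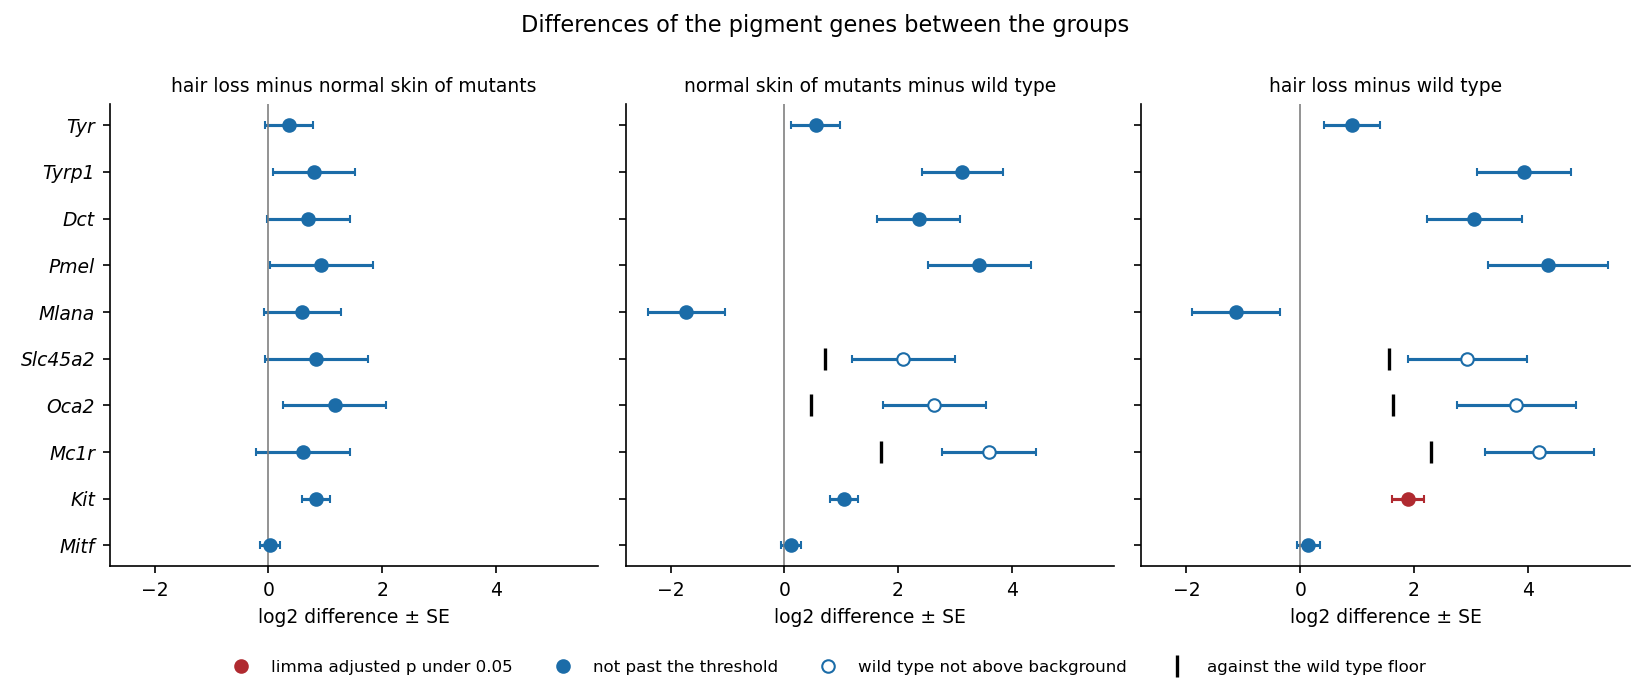
Log2 difference ± SE of each pigment gene (limma, 8 arrays, brightest tested probe) in the 3 comparisons; open points mark genes not well above background in the wild type, and black bars their values against the wild type floor (for Oca2 in normal mutant skin with 1 of 4 arrays below background). Kit between hair loss and wild type, at 1.89, is the single point past the threshold, and Mlana lies on the other side of 0 from the rest in both comparisons with the wild type.

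The enzymes of the pathway differed in how far they stood apart. Tyrp1, which acts on a late intermediate of melanin synthesis, had levels of 2.54 and 2.15 in hair loss skin of Mutant097 and Mutant113, 3.17 and 0.56 in normal samples B and A of Mutant097, 1.90 and 0.53 in normal samples B and A of Mutant113, and -1.25 and -1.94 in wild type B and A. Every mutant sample lay above both wild type samples, and the hair loss samples lay inside the range of normal mutant skin. The log2 difference of Tyrp1 from wild type was 3.13 (SE 0.72, limma adjusted p = 0.117) for normal mutant skin and 3.94 (SE 0.83, adjusted p = 0.0628) for hair loss skin, 8.77-fold and 15.3-fold, neither past the threshold.

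Dct, dopachrome tautomerase, read 5.15 and 4.22 in hair loss skin of Mutant097 and Mutant113, 5.50 and 3.38 in normal B and A of Mutant097, 4.18 and 2.86 in normal B and A of Mutant113, and 2.28 and 0.95 in wild type B and A. All 6 mutant samples were again above the wild type, and sample A was the lowest of its title number in each case. The log2 difference from wild type was 2.36 (SE 0.73, limma adjusted p = 0.182) for normal mutant skin and 3.06 (SE 0.84, adjusted p = 0.094) for hair loss skin. A second Dct probe gave the same order of the 8 samples on its own scale, from 4.37 in normal sample B of Mutant097 to -0.32 in wild type A.

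Tyr, the rate-limiting enzyme, overlapped between normal mutant skin and both other groups, while its hair loss samples lay just above the wild type. Its levels were -1.13 and -2.06 in hair loss skin of Mutant097 and Mutant113, -1.19 and -2.21 in normal B and A of Mutant097, -1.95 and -2.48 in normal B and A of Mutant113, and -2.11 and -2.90 in wild type B and A. Wild type B lay among the mutant samples and wild type A below all of them. The log2 difference from wild type was 0.55 (SE 0.43) for normal mutant skin and 0.91 (SE 0.49) for hair loss skin, and neither was called. A second Tyr probe, spotted 10 times, was above background on 0 arrays and was not tested.

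**Figure D2:**
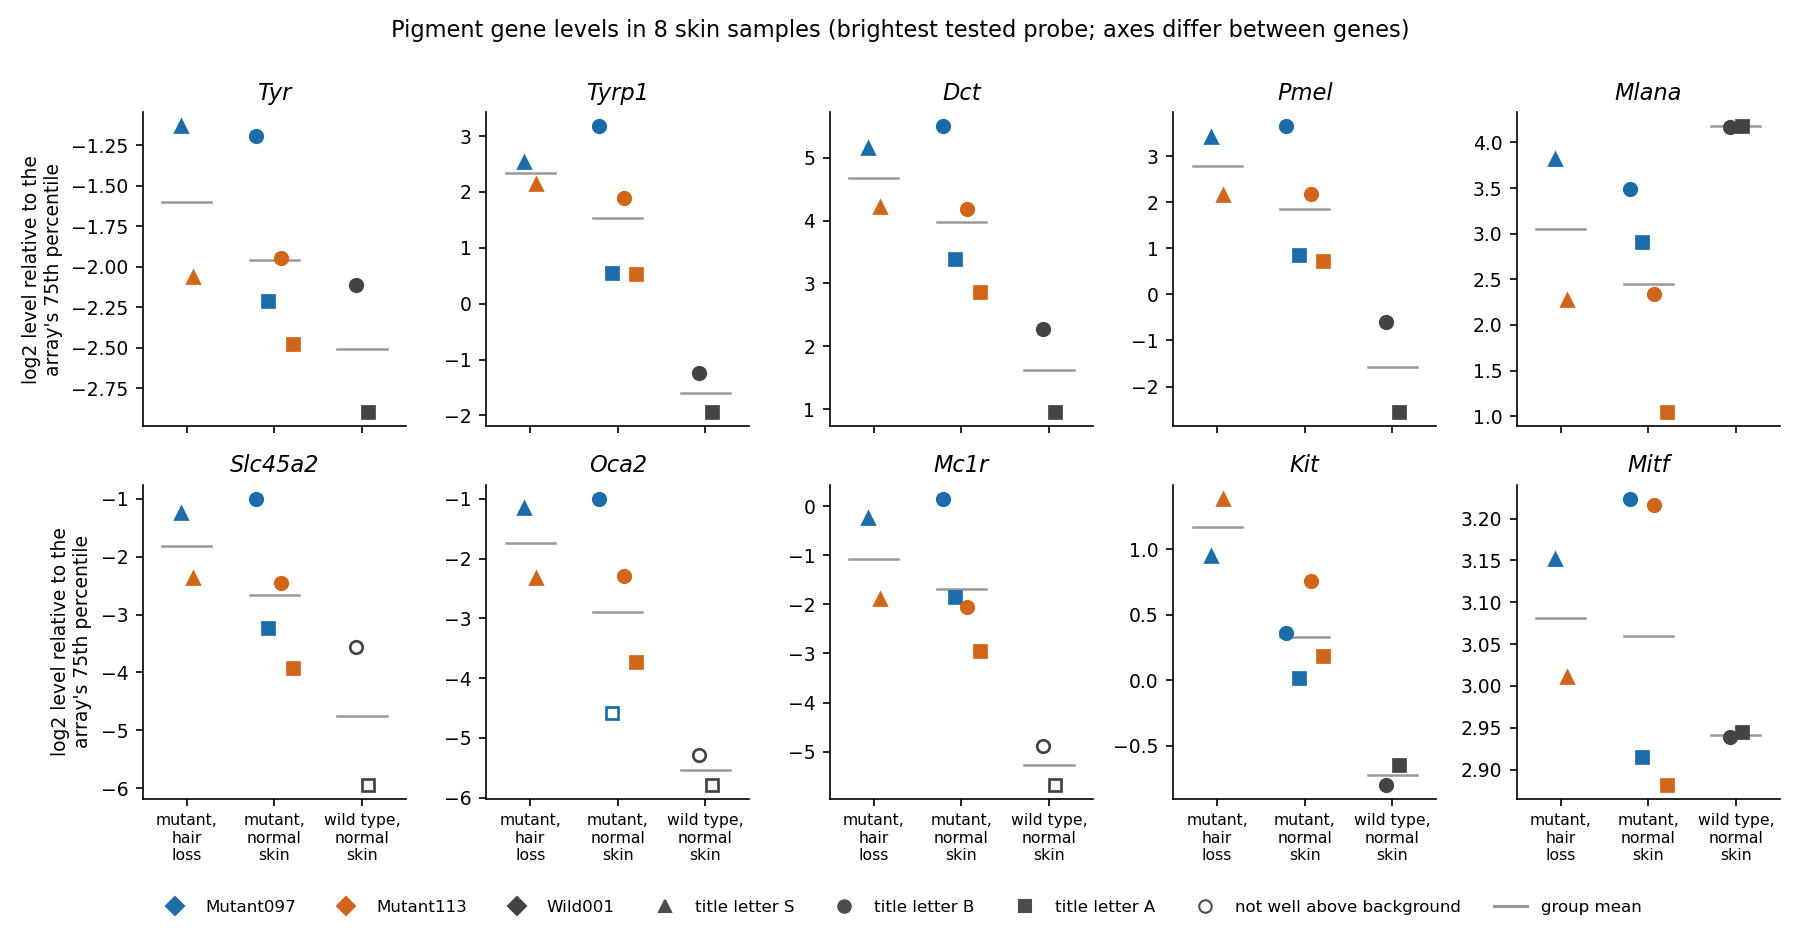
Log2 level of each pigment gene in every sample by group (one panel per gene, each with its own axis), coloured by title number and shaped by title letter, with hollow points where the probe was not well above background and a grey line at the group mean. In most panels the B samples and the hair loss samples sit above the A samples of their number and the wild type lies lowest, while the Mlana panel has the wild type on top at 4.17.

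Pmel and Mlana, both melanosome proteins, differed from the wild type in opposite directions. Pmel levels were 3.40 and 2.15 in hair loss skin of Mutant097 and Mutant113, 3.64 and 0.85 in normal B and A of Mutant097, 2.18 and 0.73 in normal B and A of Mutant113, and -0.60 and -2.55 in wild type B and A. No mutant sample was as low as either wild type sample. The log2 difference from wild type was 3.43 (SE 0.91, limma adjusted p = 0.149) in normal mutant skin and 4.36 (SE 1.05, adjusted p = 0.0769) in hair loss skin.

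Mlana, also called MART-1, which acts with Pmel in melanosome maturation, was highest in the wild type. It measured 3.82 and 2.27 in hair loss skin of Mutant097 and Mutant113, 3.49 and 2.91 in normal B and A of Mutant097, 2.34 and 1.05 in normal B and A of Mutant113, and 4.17 in both wild type samples. Both wild type samples were above all 6 mutant samples. The log2 difference from wild type was -1.73 (SE 0.68, limma adjusted p = 0.256) for normal mutant skin and -1.13 (SE 0.78, adjusted p = 0.397) for hair loss skin, and neither passed the threshold. Within the mutants it ran as Pmel did, higher in B than in A and higher in Mutant097 than in Mutant113. The wild type samples, which differed by 1.95 in Pmel and by 1.33 in Dct, were equal in Mlana to 2 decimals. The gene was read by a single probe.

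The transporters Slc45a2 and Oca2, which act on the ion content and pH of the melanosome, were above background in mutant skin only. Slc45a2 read -1.25 and -2.37 in hair loss skin of Mutant097 and Mutant113, -1.0 and -3.24 in normal B and A of Mutant097, and -2.45 and -3.92 in normal B and A of Mutant113. In the wild type, where it was not well above background, its values were -3.55 and -5.94. By group means it exceeded the wild type at least 1.65-fold in normal mutant skin and at least 2.96-fold in hair loss skin. These bounds are against the lowest signal that counted as above background on each wild type array. Normal A of Mutant113 lay below wild type B, so normal mutant skin and wild type overlapped. The log2 differences of 2.09 and 2.94 were not called (limma adjusted p = 0.292 and 0.143). Here and for Oca2 and Mc1r, the p-values belong to the log2 differences and not to the bounds.

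Oca2 read -1.15 and -2.33 in hair loss skin of Mutant097 and Mutant113, -1.0 in normal B of Mutant097, and -2.29 and -3.73 in normal B and A of Mutant113. It was not well above background in normal A of Mutant097 (-4.58) or in the wild type (-5.30 and -5.78). Among the mutant samples, normal A of Mutant097 was thus the single one not well above background. In hair loss skin Oca2 was higher than in the wild type by at least 3.11-fold (limma adjusted p = 0.0956). For normal mutant skin, where 3 of 4 arrays were above background, the mean of all 4 readings over the wild type floor was 1.39-fold (adjusted p = 0.217) and is no strict bound.

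The receptors Mc1r and Kit both separated mutant from wild type samples. Mc1r, the receptor for melanocortin that steers the kind of pigment made, had levels of -0.25 and -1.89 in hair loss skin of Mutant097 and Mutant113, 0.15 and -1.85 in normal B and A of Mutant097, and -2.06 and -2.96 in normal B and A of Mutant113. The wild type samples, not well above background, read -4.88 and -5.67. Mc1r was at least 3.23-fold higher in normal mutant skin and at least 4.94-fold higher in hair loss skin than in the wild type (limma adjusted p = 0.117 and 0.0707).

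Kit, the receptor for stem cell factor that melanocytes need for survival and migration, was highest in hair loss skin. Its levels were 0.95 and 1.39 in hair loss skin of Mutant097 and Mutant113, 0.36 and 0.02 in normal B and A of Mutant097, 0.75 and 0.18 in normal B and A of Mutant113, and -0.80 and -0.65 in wild type B and A. The 3 groups did not overlap. Hair loss skin averaged 1.17 ± 0.31 (SD, n = 2), normal mutant skin 0.33 ± 0.32 (n = 4) and wild type -0.72 ± 0.11 (n = 2). Kit rose by 1.89 on the log2 scale (SE 0.28), 3.71-fold, from wild type to hair loss skin (limma adjusted p = 0.0287). The log2 differences of 1.05 (SE 0.24, adjusted p = 0.119) from wild type to normal mutant skin and 0.84 (SE 0.24, adjusted p = 0.765) from normal mutant to hair loss skin were not called.

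The Kit call depended on single libraries and settings. Limma's adjusted p was 0.108 and 0.0613 without hair loss replicates 1 and 2, 0.0502 without normal skin replicate 4, and 0.155 and 0.0695 without wild type replicates 1 and 2. It was 0.0724 without a filter on dim probes and 0.222 with 1 mean per group and title number. Without normal skin replicate 1, 3 members (Tyrp1, Mc1r and Kit) were called between hair loss and wild type, among 389 of 30417 probes. Mast cells also express Kit, and the summed level of 8 mast cell markers was 40.0 and 114 in the hair loss samples, 39.2 to 57.4 in normal mutant skin and 35.8 to 39.2 in the wild type, in units of the array's 75th percentile. Of 7 tested mast cell markers, 7 were higher in hair loss skin than in wild type and 0 were called, with a median of 0.86; the part of mast cells in the Kit result was not tested.

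Mitf, the transcription factor of the melanocyte lineage, was nearly level. Its brighter probe read 3.15 and 3.01 in hair loss skin of Mutant097 and Mutant113, 3.22 and 2.92 in normal B and A of Mutant097, 3.22 and 2.88 in normal B and A of Mutant113, and 2.94 in both wild type samples. The largest of the 3 log2 differences was 0.14 (SE 0.20) between hair loss and wild type, and none was called. A second Mitf probe ran from 1.05 in normal A of Mutant097 to 2.15 in normal B of Mutant113, with the wild type at 2.11 and 1.21, and its order of samples was not that of the first. Other cell types of skin, mast cells among them, also express Mitf.

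Normal skin of the 2 mutant numbers was compared next. These samples also differ in sex-linked transcripts and in slide row, so title number, sex and row cannot be told apart here. Members were lower in Mutant113 than in Mutant097 in 9 of 10, with a median log2 difference of -0.72, and Kit was the exception at 0.28 (SE 0.26). None of the 10 was called by limma (0.266% of all probes), and 1 of 10, Mlana at -1.51 (SE 0.46), had an unadjusted p under 0.05, beside 15.8% of all probes. The difference of hair loss from normal mutant skin had a median of 0.69 in Mutant097 and 0.69 in Mutant113. Its difference between the numbers was called by limma for 0 of 10 members (0% of all probes) with 0 of 10 at an unadjusted p under 0.05 (9.50% of all probes), although each number has a single hair loss sample and the SE reached 2.05 for Oca2. Against the wild type the median was 2.69 for normal skin of Mutant097 and 1.73 for that of Mutant113, with 9 of 10 higher in each.

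The letters in the sample titles were compared too, a comparison added after the data were seen. In normal skin, 7 of 10 members (Tyr, Tyrp1, Dct, Pmel, Slc45a2, Oca2 and Mc1r) were higher in sample B than in sample A in all 3 title numbers, which held for 10.5% of all probes. The median of B minus A over the 10 genes was 2.06 in Mutant097, 1.31 in Mutant113 and 0.74 in Wild001, where all probes had medians of -0.02, 0.01 and -0.01. Pmel differed by 2.80, 1.45 and 1.95 and Dct by 2.12, 1.32 and 1.33 in Mutant097, Mutant113 and Wild001. Tyrp1 differed by 2.61, 1.37 and 0.70 in the same order. Mlana, Kit and Mitf were higher in B in both mutant numbers and were 0.00, -0.15 and -0.01 in Wild001. The wild type values of Slc45a2, Oca2 and Mc1r and the Oca2 value of normal A of Mutant097 that enter this count were not above background.

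Across the 3 numbers, a limma model with the number as a block gave B minus A of 1.59 (SE 0.23, adjusted p = 0.643) for Dct, 2.07 (SE 0.30, adjusted p = 0.643) for Pmel and 1.56 (SE 0.40, adjusted p = 0.867) for Tyrp1. It called 0 of 10 members (0% of all probes), with 7 of 10 at an unadjusted p under 0.05 beside 5.01% of all probes. With normexp the same limma model called 3 members, Tyrp1 (adjusted p = 0.0235), Dct (0.00126) and Pmel (0.00089), among 39 of 30417 probes. The median over the members was 1.39, and it was 0.90 without Mutant097 and 0.64 with normexp. With 2 residual degrees of freedom, the model rests on 3 pairs.

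Set against the letters, the hair loss samples lay nearer to sample B of their own number than to sample A in most members. Hair loss minus A was above 0 in 10 of 10 members in both numbers, with medians of 1.69 in Mutant097 and 1.29 in Mutant113, where 46.2% and 53.6% of all probes were above A. Hair loss minus B was above 0 in 3 of 10 members in Mutant097 and 5 of 10 in Mutant113, with medians of -0.19 and 0.00. Kit was the member with the largest excess over B, by 0.59 in Mutant097 and 0.63 in Mutant113. For Dct the corresponding values were -0.35 and 0.03, and for Pmel -0.24 and -0.03. These are differences between single samples and have no test.

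**Figure D3:**
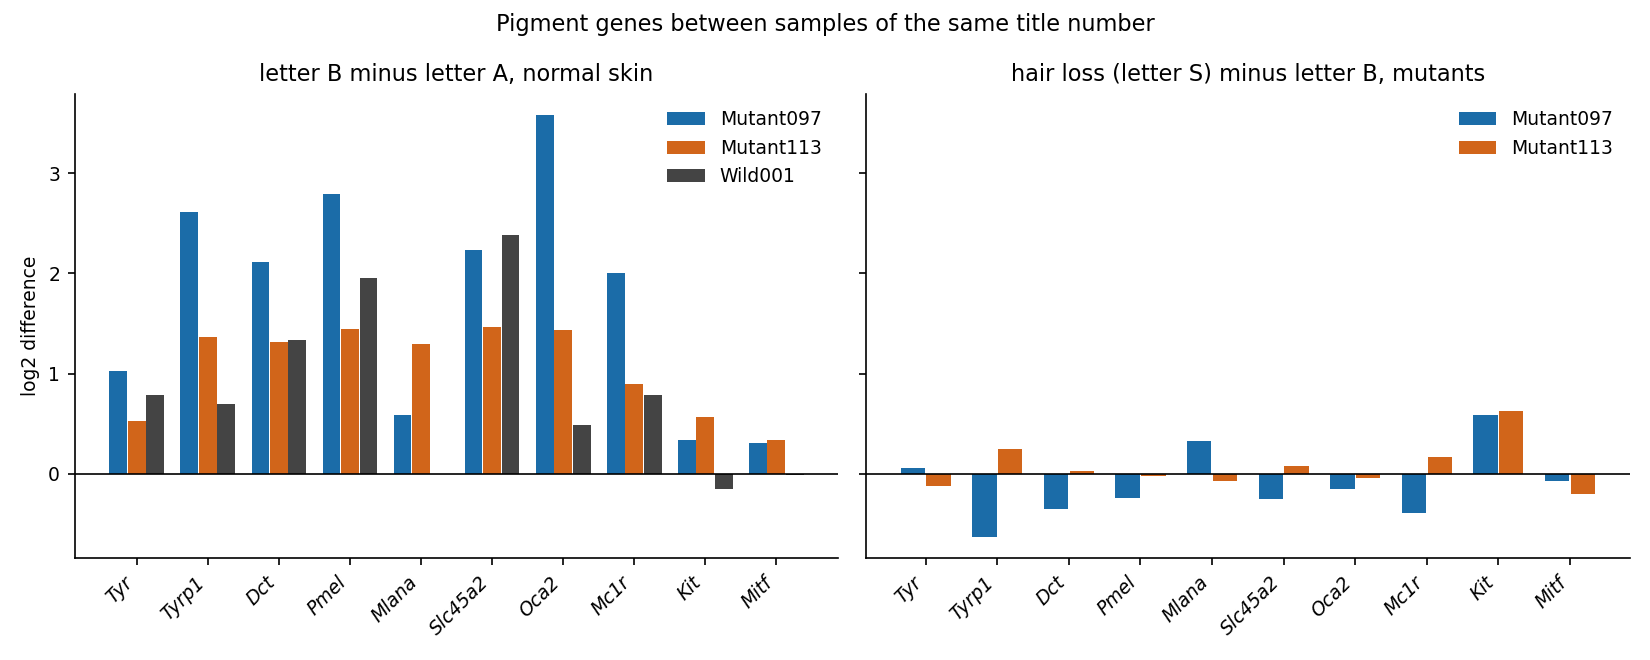
Log2 differences of the pigment genes between samples of one title number, as letter B minus letter A in normal skin (left) and hair loss minus letter B (right), one bar per title number and with no error bars because each bar is a difference of single samples. The bars on the left reach 2.80 (Pmel in Mutant097) among genes above background in both samples, the taller Oca2 bar of Mutant097 having a sample A below background, and those on the right stay between -0.63 and 0.63.

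The profiles over the 8 samples were compared by the root mean square difference between a probe's centred log2 profile and the mean centred profile of Tyr, Tyrp1 and Dct. Profiles were not scaled, so this distance reflects the size of a gene's changes as well as their pattern. A gene with the same pattern but larger or smaller changes ranks lower. Dct was nearest at 0.23 (rank 1 of 30417 probes). Probes of other genes lay between it and the other members. These were Slc45a2 at 0.43 (rank 20), Tyrp1 at 0.56 (rank 100), Oca2 at 0.64 (rank 202) and Tyr at 0.73 (rank 416). Pmel stood at 0.76 (rank 498), Kit at 0.78 (rank 560) and Mc1r at 0.80 (rank 614). Since Dct, Tyrp1 and Tyr are part of the mean, their nearness to it is partly built in. The median of all 30417 probes was 1.26. Mitf, nearly flat, stood at 1.1 (rank 5907) and Mlana at 1.71 (rank 28480). The 5 genes outside the list with the nearest profiles were Atp1a4 (0.24), Pclaf (0.25), Hes2 (0.26), Kash5 (0.34) and Clic6 (0.36). Of these, Atp1a4 and Pclaf were well above background on 4 of the 8 arrays, Clic6 on 5, Kash5 on 6 and Hes2 on 7. Part of the profile of all 5 is thus background.

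**Figure D4:**
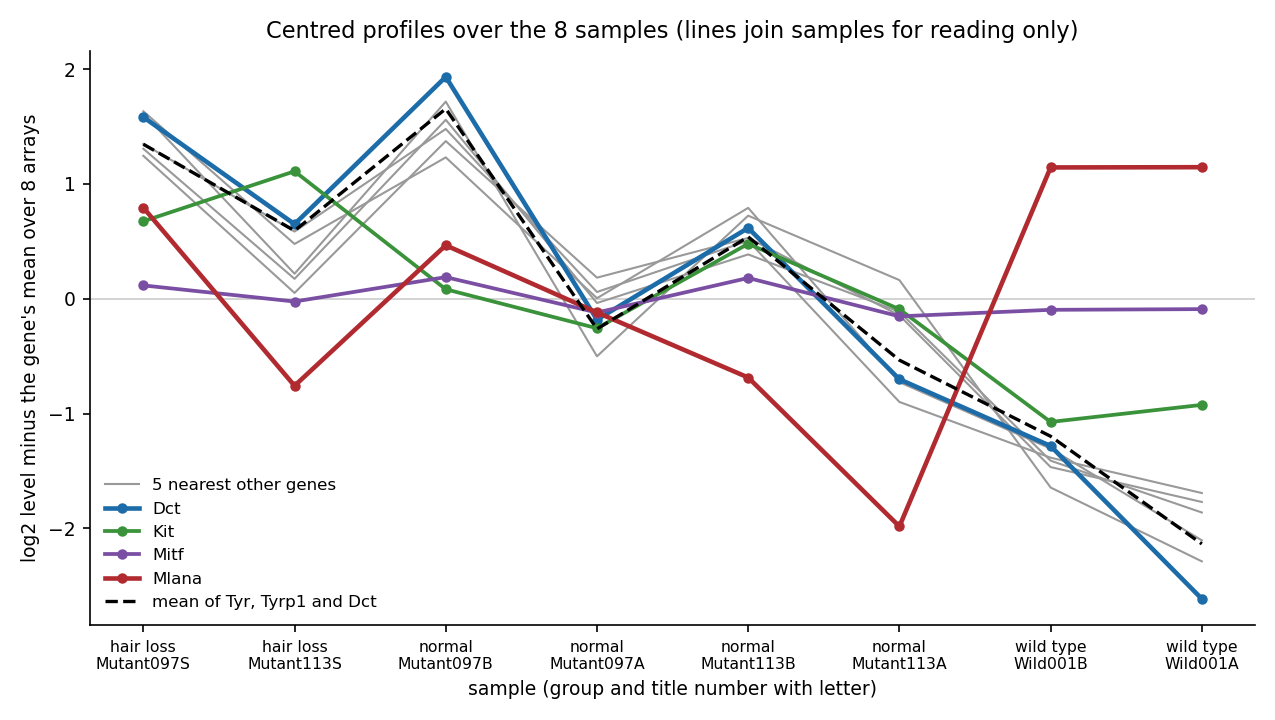
Log2 level of each gene minus its own mean over the 8 arrays, for Dct, Kit, Mitf and Mlana, the mean of Tyr, Tyrp1 and Dct (dashed) and the 5 other genes nearest to that mean (grey); samples are ordered by group. Dct runs from 5.50 in normal sample B of Mutant097 to 0.95 in wild type A before centring, and Mlana is highest in the wild type, where Dct and Kit are lowest.

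Other genes of the melanocyte lineage had smaller median differences than the members. Of 15 lineage genes that are not members, 12 were tested, and their median was 0.20 between hair loss and normal mutant skin, 0.21 between normal mutant skin and wild type and 0.34 between hair loss and wild type, with 0 called by limma in each. The brightest, Cd63, a membrane protein of many cell types, was -0.71 (SE 0.27) in normal mutant skin against wild type. The genes named next were chosen after their values were seen. Gpr143 and Slc24a5, a receptor and an ion exchanger of pigment organelles, were not above background in the wild type and were at least 3.74-fold and 6.43-fold higher in hair loss skin. In normal mutant skin Slc24a5 was at least 3.42-fold higher, and Gpr143 was above background on 3 of 4 arrays. Trpm1, an ion channel of melanocytes, was 1.52 (SE 0.41) higher in normal mutant skin than in wild type by its brightest probe. With all its tested probes averaged, the difference was 3.23. Sox10, a lineage transcription factor also made by Schwann cells, was -0.37 (SE 0.25) in the same comparison. Of these genes none passed limma's threshold by its brightest probe.

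The 18 genes of melanosome assembly and transport, which many cell types use for related organelles, had medians of -0.02, 0.06 and 0.02 in the 3 comparisons, with 0 of 18 called by limma. Their brightest gene, Ap3b1, an adaptor subunit, differed by at most 0.01 in size. Of 11 genes for signals that reach melanocytes, 10 were tested, with medians of 0.57, 0.61 and 1.09. Nrg1, a growth factor, rose in hair loss skin against wild type, where it was not above background, and was at least 10.8-fold higher. Its log2 difference of 3.92 (SE 0.62) was called (limma adjusted p = 0.0338), and this p-value does not belong to the bound. This call was lost without hair loss replicate 1 (adjusted p = 0.169), normal skin replicate 4 (0.0551) or wild type replicates 1 (0.168) and 2 (0.0744), and with normexp (0.078), no filter on dim probes (0.0551) or 1 mean per group and title number (0.217). Kitl, the ligand of Kit, was 0.42, 0.70 and 1.11 higher in the 3 comparisons and was not called.

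Keratins of the hair shaft and genes of the inner root sheath had larger median log2 differences between mutant and wild type skin than the pigment genes. All 11 tested hair shaft keratins were higher in normal mutant skin and in hair loss skin than in wild type. Limma called 8 and 9 of them, beside 0.694% and 1.42% of all probes. Their median log2 differences were 6.31 and 7.64. Since 7 of the 11 were not above background in the wild type, these medians are partly set by background, and with those 7 at their lower bounds they were 6.06 and 7.64. The brightest called in both were Krt86, Krt33a, Krt31, Krt35 and Krt34. All 9 genes of the inner root sheath, the sleeve that moulds the shaft, were higher in each comparison, and limma called 7 in each. Of the 9, 8 were above background on every mutant array in each comparison, and 1 was above background on no hair loss array. Their medians were 7.69 and 8.60, or 6.67 and 7.32 with the 2 genes not above background in the wild type at their bounds. The brightest called were Krt71, Tchh, Krt27, Krt28 and Krt25. Among 7 tested regulators of the follicle matrix, the medians against wild type were 1.52 in normal mutant skin and 2.34 in hair loss skin, and Hoxc13 was called in normal mutant skin and Hoxc13 and Msx2 in hair loss skin. These calls rest on the wild type pair, and most were lost with either wild type sample left out. That leaves 1 sample in the group, while the differences themselves stayed large. Without wild type replicates 1 and 2, the hair shaft medians were 6.49 and 6.46 in normal mutant skin and 8.08 and 7.63 in hair loss skin. The inner root sheath medians were 8.06 and 7.32 in normal mutant skin and 8.97 and 8.22 in hair loss skin. Without hair loss replicate 1, 1 hair shaft and 0 inner root sheath genes were called in hair loss skin. Without normal skin replicate 4, 5 hair shaft genes were called in normal mutant skin. The regulators gave 0 calls against wild type without normal skin replicate 4 or either wild type sample, 0 in hair loss skin without hair loss replicate 1, and 0 in normal mutant skin without normal skin replicate 1 or 3. They gave 0 and 1 calls in normal mutant and hair loss skin with the title number as a random block, 0 and 2 with normexp, and 0 in both without a filter on dim probes. With 1 mean per group and title number, 0 genes of these 3 lists were called in either comparison.

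Follicle genes moved with the pigment genes in the comparison with wild type and in part between the letters, and their part in the pigment gene results was not tested. The summed level of the hair shaft keratins was 1885 and 647 in the hair loss samples of Mutant097 and Mutant113, 173 and 163 in normal B and A of Mutant097, 1052 and 724 in normal B and A of Mutant113, and 2.42 and 1.53 in wild type B and A. Mutant097 normal skin was thus lower than that of Mutant113 in shaft keratins, where 9 of 10 pigment genes were higher in it. The inner root sheath sum was 2385 and 1154 in hair loss skin, 1028 and 432 in normal B and A of Mutant097, 1755 and 1034 in normal B and A of Mutant113, and 8.93 and 6.10 in wild type B and A. In B against A of all 3 numbers, 8 of 9 inner root sheath genes and 2 of 11 shaft keratins were higher. Proliferation genes had a median of 2.00 for normal mutant skin against wild type, with 0 of 7 called, and 0 of 7 were higher in B in all 3 numbers.

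Markers of other cell types gave smaller or opposite shifts. Schwann cell markers had medians of -0.22, -0.41 and -0.46 in the 3 comparisons, with 0 of 7 called and their brightest, Pmp22, at -1.06 (SE 0.30) between hair loss and wild type. Epidermal and dermal structural genes, 7 tested, had medians of 0.11, 0.05 and 0.20. Myeloid markers, 5 tested, had medians of 0.14, -0.76 and -0.68. Skeletal muscle genes, 8 tested, had medians of -1.49, -0.66 and -2.13, with Mylpf, a muscle myosin light chain, called lower in hair loss skin than in wild type. Adipocyte genes, 6 tested, had medians of 0.05, 0.42 and 0.35, and T and NK cell genes, 5 tested, -0.05, -0.40 and -0.26.

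**Figure D5:**
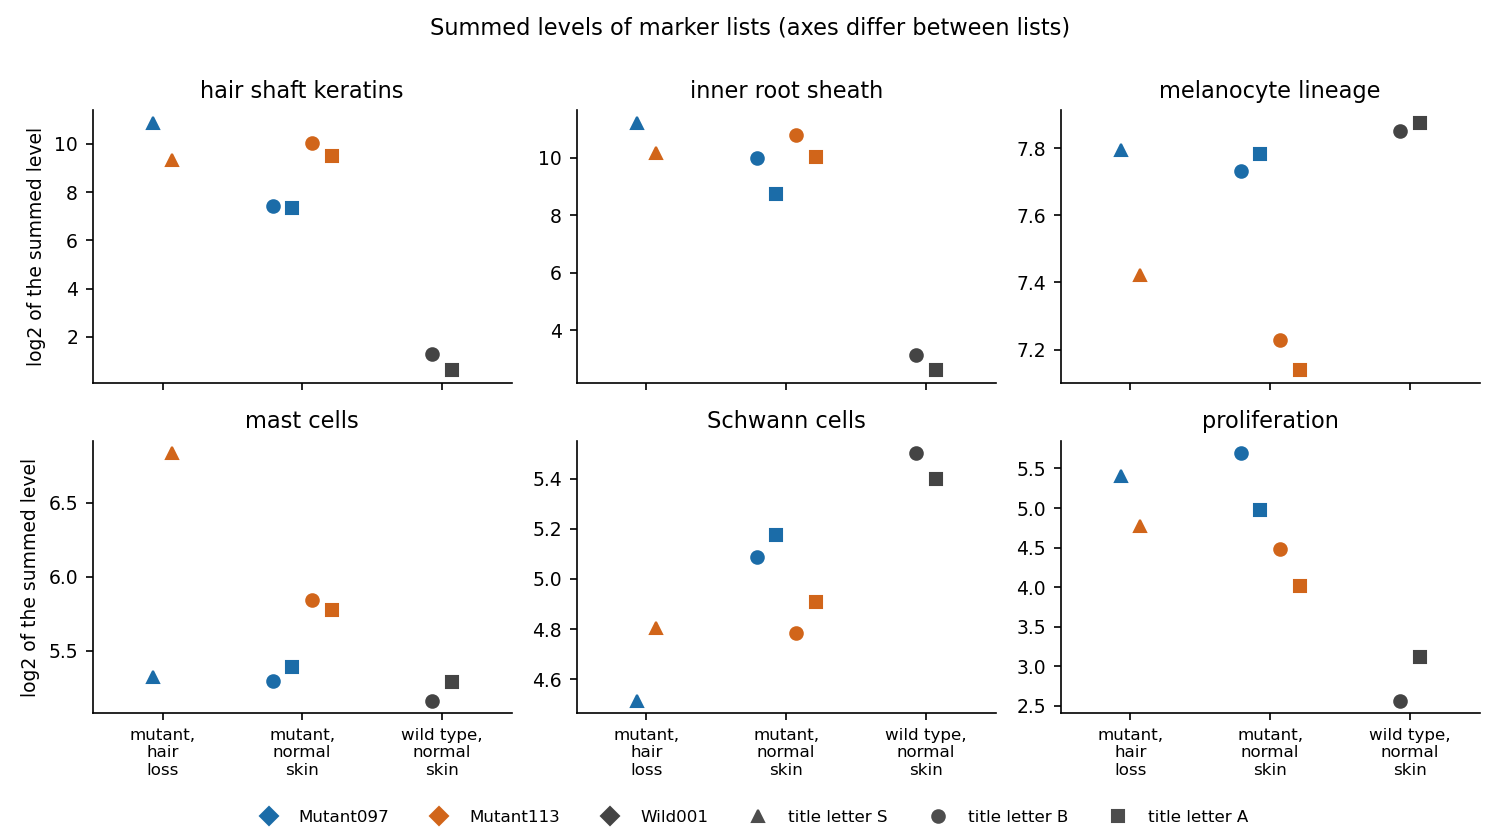
Log2 of the summed level of 6 marker lists in every sample by group (each panel with its own axis), coloured by title number and shaped by title letter. Hair shaft and inner root sheath sums are far lower in both wild type samples than in any mutant sample, and the mast cell sum is highest, at 114 before the log, in hair loss skin of Mutant113.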

How the data were processed

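Skin RNA of 8 mouse samples was hybridised to 1-colour Agilent arrays. Per the file headers, the deposited spot signal is an intensity, with background and spatial trends removed by Agilent Feature Extraction 11.5.1.1. The deposited matrix holds log2 values and equalled the log2 processed intensity within 0.01 after 1 constant per array for 55603 of 55603 probes. The processed intensity of each probe's spots, outliers left out, was put on the log2 scale and scaled to the array's 75th percentile. A probe was tested when well above background on at least 2 of 8 arrays. RefSeq accessions were matched to symbols, and the brightest tested probe stood for a gene. Listed genes without a probe were left out.

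Groups were fitted together with limma 3.58.1 in R 4.3.3 (5 residual degrees of freedom). The code was run on simulated data with independent noise, equal for all probes and below the root mean square residual SD of these data. That run does not show how well calls hold here. P-values were adjusted by Benjamini-Hochberg over 30417 probes and called under 0.05. Lower bounds used each wild type array's dimmest signal above background, or the probe's own if higher. Title numbers and letters had models of their own. All members were named, and from each gene list those called, at most the 5 brightest, or else the brightest gene. The members and lists were chosen with earlier results of these data known. Alternatives covered scaling, background, filter, blocks and left-out samples. The files hold no mean signal, so normexp (offset 50) used the median signal. The number of arrays limits the precision.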

Additional observations from a re-analysis of the deposited data

How the results depend on the processing

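With 2 to 4 arrays per group, single arrays decided most calls. The log2 difference of Kit between hair loss and wild type ran from 1.67 to 2.11 with each sample left out. Between hair loss and wild type, 1 member was called; the count was 4 with median scaling, 4 with only the 2 groups compared, 0 without a filter on dim probes, 0 with 1 mean per group and title number, and 0 to 3 with each sample left out. Kit, the called member, had limma adjusted p-values of 0.0169 to 0.222 over 21 alternatives. The normexp correction, chosen after the data were seen, gave medians of 0.47 for normal mutant skin and 0.67 for hair loss skin against wild type, and 3 members called for letter B minus A. Signs turned between hair loss and normal mutant skin for Mitf (-0.019 with quantile normalization, -0.0067 with normexp and -0.038 within Mutant113) and for Mlana and Mc1r (-0.16 and -0.22 with the slide row as a block). That block leaves normal skin of Mutant097 alone beside hair loss skin and normal skin of Mutant113 alone beside the wild type. Hair loss against wild type then joins both steps, and the block does not adjust for the row apart from the title number. With each sample left out, these differences ran from -0.048 to 0.092 for Mitf, -0.18 to 1.37 for Mlana, -0.21 to 1.44 for Mc1r and -0.11 to 0.82 for Tyr, and the lowest was in each case without the hair loss sample of Mutant097. Mitf was -0.019 between normal mutant skin and wild type with all probes of a gene averaged. With each sample left out, the medians ran from 0.26 to 1.27, 1.41 to 2.96 and 2.18 to 3.89 in the 3 comparisons. The samples share a title number without a stated pairing; with the number as a replicate block, 0 members were called between hair loss and normal mutant skin and the median was 0.75. Median scaling moved the all-probe median from -0.04 to 0.12 in normal mutant skin and from -0.06 to 0.16 in hair loss skin against wild type. Over all probes, limma called 211 and 432 in these 2 comparisons, 332 and 795 with median scaling, 128 and 183 without a filter, 0 and 0 with 1 mean per group and number, 147 and 306 with a random block, and 856 and 1332 with the slide row as a block. The share of calls that were higher was 82.9% and 69.9%, 48.4% and 52.6% with the slide row, and 91.0% and 84.2% with median scaling. They were 116 and 708 without normal skin replicate 3 and 75 and 261 without normal skin replicate 4; hair loss against wild type gave 672 with the filter at 4 arrays and 706 with only those 2 groups, and normal skin of Mutant113 alone gave 991 against wild type. Without hair loss replicate 1, 2 probes were called between hair loss and wild type. Without wild type replicates 1 and 2, 10 and 0 were called in each of the 2 comparisons.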
